A study of Homo sapiens with 8 samples.

Results

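Solute carriers are membrane proteins that move amino acids, sugars, metals, nucleotides and other small molecules across the cell surface or into organelles. They do so without hydrolysing ATP themselves, by letting a substrate flow down its gradient or by coupling it to ions such as sodium or protons. Cancer cells depend on them for nutrient uptake, for export of lactate and for exchange between the cytosol and the mitochondria. The genes described here are the 73 whose symbol starts with SLC and a digit or with SLCO in any of 3 deposited tables, out of 2998 genes listed there in all. The choice set 4 matching symbols aside, of which 3 stood in the brazilin table and 3 in the acetylated brazilin table.

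RNA sequencing was done on 8 samples of MDA-MB-231, an established human line from a triple-negative breast cancer, with 2 samples in each of 4 groups. The groups were untreated cells and cells given brazilin (a phenolic compound of sappanwood), methylated brazilin or acetylated brazilin, each at 20 µM for 48 h with daily renewal from seeding. The whole study rests on this 1 line, and neither solvent in the untreated cells nor separate cultures for the samples of a group are stated in the sources used here. The spread behind the q-values is that between samples of a group, and it may be technical. The tables hold the genes that the authors called, with the mean FPKM (fragments per kilobase of transcript, scaled to the mapped fragments of a library) of both groups, a log2 fold change of treated over untreated cells and a q-value. All called genes have a q-value under 0.05 and an absolute log2 fold change of at least 0.5. Values per sample and read totals were not analysed here, so no spread or standard deviation can be shown, the depth is unknown, and a gene outside a table has no value. Levels in FPKM, fold changes and q-values below come from the authors' deposited table of the compound named. Each interval is a 95% interval from an error that was bounded with the q-value. As every listed q-value is under 0.05, the interval of a listed fold change excludes 0 by construction. It is no evidence beyond the q-value. Less RNA per cell cannot be told apart from fewer cells of a given state in such bulk samples. Of 16 marker genes of this line and of other cell types 3 were listed, CD44 and CAV1 as higher and PECAM1 as lower with brazilin, so the labelled cell type could not be checked further.

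With brazilin 68 solute carrier genes were listed, of which 30 rose and 38 fell. This is 44.1% higher, beside 47.6% among all 2885 listed genes. The median log2 fold change was -0.53 for the members and -0.51 for all listed genes. No value under 0.5 in size can be listed. With falls only slightly more frequent than rises, both medians therefore lie near that limit and do not give a typical change. By gene ID and current symbol, 67 of the 394 protein-coding solute carrier genes in RefSeq were listed (17%), beside 14.3% of all 20056 protein-coding genes, a count that includes genes these cells may not express. The direction and the share listed were thus near those of the whole table. Changes were modest in size, with 15 members at least 2-fold apart between the groups (22.1%, beside 28.1% of all listed genes). Among these 15, 9 rose and 6 fell, beside 533 rises and 277 falls among the 810 listed genes with such a change. Rises thus outnumbered falls at this size in the whole table too. Of the 9 member rises 6 were of genes under 1 FPKM in both groups. In untreated cells the listed members ranged from 0.01 FPKM, the lowest value in the tables, to 138 FPKM for the glutamine transporter gene SLC38A1.

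**Figure D1:**
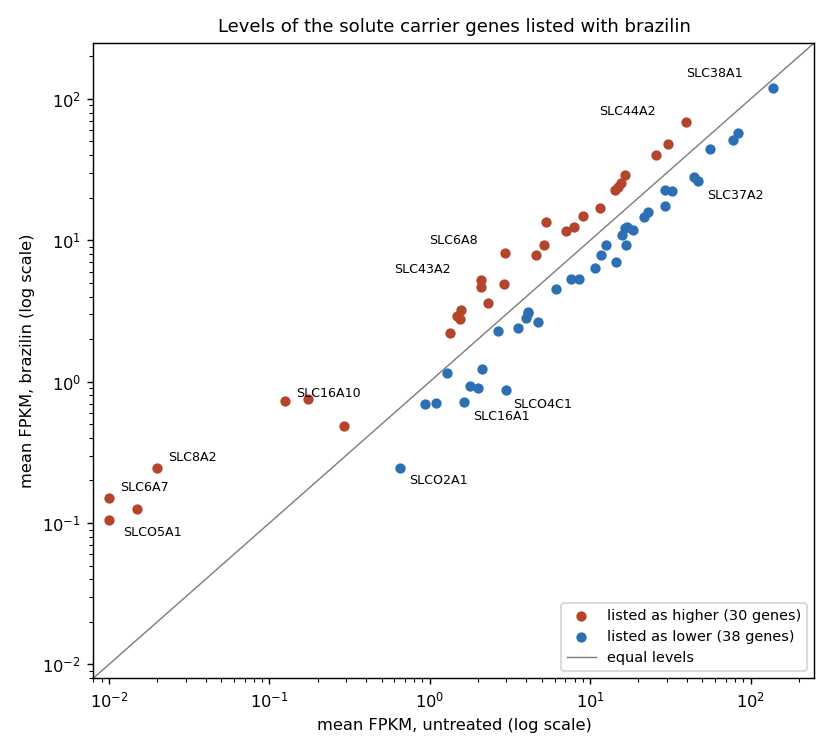
Mean FPKM of the 68 solute carrier genes listed with brazilin, in untreated cells (x axis) and with brazilin (y axis), both on log scales; each point is 1 gene and the line marks equal levels. The points at the lower left are low genes listed as higher, such as SLC6A7 at 0.01 and 0.15 FPKM, and genes over 10 FPKM lie close to the line on either side.

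**Figure D2:**
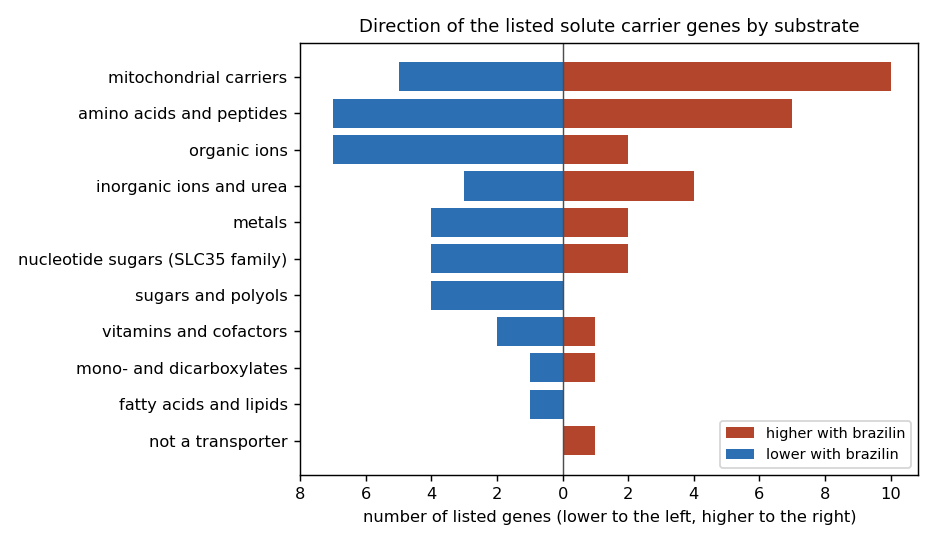
Number of listed solute carrier genes that were lower (left) or higher (right) with brazilin, by the substrate group of the transporter. Mitochondrial carriers lean to the right with 10 higher and 5 lower, organic ion carriers to the left with 2 higher and 7 lower, and all 4 sugar carriers were lower.

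The promoters of 4 members are shown because these genes had the largest falls (SLC6A9, SLC10A7) and rises (SLC25A22, SLC44A2) among members that reach 10 FPKM in either group and have a promoter in the RefSeq table. Each is the 250 bases before the RefSeq start on GRCh38.p14, 5′ to 3′ on the strand of the gene, and capitals mark matches to the motifs searched.
SLC6A9 (chr1:44031463-44031712, minus strand): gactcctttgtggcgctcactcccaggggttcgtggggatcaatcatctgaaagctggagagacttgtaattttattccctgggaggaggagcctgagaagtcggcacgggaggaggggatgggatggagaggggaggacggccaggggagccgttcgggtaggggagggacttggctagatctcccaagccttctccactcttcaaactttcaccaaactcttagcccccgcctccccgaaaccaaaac
SLC10A7 (chr4:146521941-146522190, minus strand): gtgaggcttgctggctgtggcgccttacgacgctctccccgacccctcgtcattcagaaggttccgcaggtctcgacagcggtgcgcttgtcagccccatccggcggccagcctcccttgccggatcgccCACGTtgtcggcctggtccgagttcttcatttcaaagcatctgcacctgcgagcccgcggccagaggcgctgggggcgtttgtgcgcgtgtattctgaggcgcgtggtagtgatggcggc
SLC25A22 (chr11:798282-798531, minus strand): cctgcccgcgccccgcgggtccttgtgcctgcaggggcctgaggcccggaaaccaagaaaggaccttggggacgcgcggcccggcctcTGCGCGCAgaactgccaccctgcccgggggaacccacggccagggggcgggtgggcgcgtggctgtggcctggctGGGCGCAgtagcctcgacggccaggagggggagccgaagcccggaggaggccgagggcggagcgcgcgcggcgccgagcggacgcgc
SLC44A2 (chr19:10602205-10602454, plus strand): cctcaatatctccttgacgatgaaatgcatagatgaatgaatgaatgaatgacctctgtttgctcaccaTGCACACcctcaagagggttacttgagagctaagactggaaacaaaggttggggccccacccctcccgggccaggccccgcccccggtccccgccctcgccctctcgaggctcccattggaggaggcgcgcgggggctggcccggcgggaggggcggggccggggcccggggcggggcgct
SLC10A7 holds 1 HIF match, SLC25A22 holds MTF1 matches of which a pair overlap, SLC44A2 holds 1 MTF1 match and SLC6A9 none of the 5 motifs. Their GC content was 57.6% in SLC6A9, 65.6% in both SLC10A7 and SLC44A2, and 78.0% in SLC25A22.

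The motifs were searched on both strands of the same window in the 51 of 68 brazilin members that the promoter table holds, with the first promoter listed for each gene. The MTF1 motif (TGCACNC or TGCGCNC), named for the zinc-responsive transcription factor, was present in 15 of 25 promoters of members that rose and 10 of 26 of members that fell, beside 24.7% of all 27305 promoters, 33.3% of promoters of all listed genes that rose and 31.6% of those that fell. The HIF motif (ACGTG), named for the hypoxia-inducible factors, was in 3 of 25 and 9 of 26 promoters, beside 18.7% of all, 20.8% of listed rises and 26.5% of listed falls. The EGR1 motif (GCGGGGGCG or GCGTGGGCG) was in 3 and 5 promoters, beside 5.30% of all, 9.13% of listed rises and 9.76% of listed falls. The NRF2 motif (TGANNNNGC) was in 5 and 11, beside 35.4% of all promoters, and the ATF4 motif (TGATGNAA) in 2 and 0, beside 3.19%. These counts describe letters in a window, and binding was not measured.

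Of 66 amino acid and peptide transporter genes 14 were listed with brazilin (21.2%, beside 14.3% of all protein-coding genes). The 7 rises and 7 falls were near the 47.6% higher of the whole table. The falls included the more abundant genes, whereas no riser of this group exceeded 8.08 FPKM. Rises were also the less abundant over all genes listed with brazilin. Their median level, in whichever group was higher, was 5.93 FPKM, beside 9.26 FPKM for falls. SLC6A9, the glycine transporter GLYT1, fell from 16.7 to 9.22 FPKM (log2 -0.95, interval -1.14 to -0.76, q = 1.52e-22). SLC1A4, the neutral amino acid transporter ASCT1, fell from 4.75 to 2.63 FPKM (log2 -0.96, interval -1.21 to -0.71, q = 2.07e-14). SLC7A7, the light chain of a transporter that exports cationic amino acids, fell from 2.11 to 1.22 FPKM (log2 -0.91, interval -1.45 to -0.37, q = 0.000925). SLC1A1, a glutamate and cysteine transporter gene, was at 1.09 and 0.705 FPKM. SLC38A1, SLC6A6 and SLC38A9 stood with SLC6A9 as the 4 most abundant members of the group, all lower. SLC38A1, a sodium-coupled glutamine transporter gene, was at 138 and 119 FPKM with a deposited log2 fold change of -0.60, while the ratio of these means is -0.21 on the log2 scale. SLC6A6, the taurine transporter gene, was at 56.2 and 44.1 FPKM (log2 -0.59, and -0.35 by the ratio of means). SLC38A9, a lysosomal transporter that senses arginine for the mTORC1 kinase, was at 12.5 and 9.25 FPKM (log2 -0.51, and -0.43 by the ratio of means).

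The amino acid transporter genes that rose were low in untreated cells. SLC6A8, the creatine transporter gene, rose from 2.96 to 8.08 FPKM (log2 1.41, interval 1.17 to 1.64, q = 1.96e-31). SLC43A2, a transporter of large neutral amino acids, rose from 2.08 to 5.21 FPKM (log2 1.23, interval 1.03 to 1.42, q = 2.32e-34). SLC1A3, the glutamate transporter EAAT1, rose from 2.10 to 4.66 FPKM (log2 0.72, interval 0.37 to 1.08, q = 6.44e-05). SLC7A2, a transporter of cationic amino acids such as arginine, was at 2.89 and 4.88 FPKM (log2 0.66). The remaining 3 were under 1 FPKM in both groups. SLC16A10, for aromatic amino acids, went from 0.125 to 0.73 FPKM, and SLC17A8, a vesicular glutamate transporter gene, from 0.015 to 0.125 FPKM. SLC6A7, the proline transporter gene, stood at the lowest listed value, 0.01 FPKM, without treatment and at 0.15 FPKM with brazilin.

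All 4 listed sugar transporter genes fell with brazilin, beside 47.6% higher among all listed genes, with a median log2 fold change of -0.80, out of 32 sugar and polyol transporter genes in RefSeq (12.5% listed, under the 14.3% of all genes). SLC37A2, an endoplasmic reticulum carrier of sugar phosphates, went down from 47.1 to 26.3 FPKM (log2 -0.93, interval -1.05 to -0.82, q = 6.26e-57). SLC50A1, the human member of the SWEET sugar transporters, fell from 77.2 to 51.4 FPKM (log2 -0.67, interval -0.82 to -0.53). SLC2A10, the facilitative transporter GLUT10, fell from 2.01 to 0.905 FPKM (log2 -1.25, interval -1.64 to -0.86, q = 3.94e-10). SLC2A3, the high-affinity glucose transporter GLUT3, fell from 32.4 to 22.4 FPKM (log2 -0.63). The gene of GLUT1, SLC2A1, was not in the tables and has no value here.

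Among small groups, 2 of 18 mono- and dicarboxylate carrier genes (11.1%), 1 of 6 fatty acid carrier genes (16.7%) and 3 of 15 vitamin and cofactor carrier genes (20%) were listed with brazilin, beside 14.3% of all protein-coding genes. They held 2 rises and 4 falls in all. SLC16A1, the lactate and pyruvate transporter MCT1, fell from 1.63 to 0.72 FPKM (log2 -1.27, interval -1.74 to -0.80, q = 1.21e-07). SLC16A14, a family member without an established substrate, went from 0.175 to 0.755 FPKM. The gene of the fatty acid transport protein SLC27A1 went down from 7.57 to 5.29 FPKM (log2 -0.61, interval -0.83 to -0.39). SLC33A1, which brings acetyl-CoA into the endoplasmic reticulum, was lowered from 29.1 to 17.5 FPKM (log2 -0.93, interval -1.07 to -0.79, q = 8.26e-39). SLC23A2, a sodium-coupled carrier of vitamin C, fell from 11.7 to 7.89 FPKM (log2 -0.66, interval -0.80 to -0.52). SLC5A6, the carrier of biotin and pantothenate, rose from 7.03 to 11.7 FPKM (log2 0.62, interval 0.42 to 0.82). No nucleoside or nucleobase transporter gene, of 7 in RefSeq, was listed with any compound, where 14.3% would be 1 gene.

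Mitochondrial carriers of the SLC25 family, which cross the inner mitochondrial membrane, were the group with the most listed genes, 15 of 48 in RefSeq (31.2%, beside 14.3% of all protein-coding genes). The 14.3% includes genes these cells may not express, and the difference between these shares was not tested. Of the 15 listed carriers 10 rose and 5 fell with brazilin, beside 47.6% higher among all listed genes, and the median log2 fold change was 0.56. SLC25A20, which exchanges carnitine for acylcarnitine in fatty acid oxidation, rose from 5.13 to 9.28 FPKM (log2 0.77, interval 0.47 to 1.06, q = 3.19e-07). SLC25A22, a mitochondrial glutamate carrier gene, rose from 16.5 to 28.9 FPKM (log2 0.73, interval 0.58 to 0.88, q = 7.22e-21). Carriers of the malate and dicarboxylate exchange were higher too. SLC25A11, for oxoglutarate and malate, was at 25.7 and 40.2 FPKM (log2 0.56), and SLC25A10, the dicarboxylate carrier, at 8.97 and 14.9 FPKM (log2 0.64). Nucleotide carriers with rises were SLC25A4, the ADP/ATP carrier ANT1, at 7.91 and 12.5 FPKM, and SLC25A33, a pyrimidine nucleotide carrier, at 4.59 and 7.87 FPKM. SLC25A25, the ATP-magnesium and phosphate carrier, was at 14.3 and 22.7 FPKM. SLC25A45 was at 1.33 and 2.20 FPKM and SLC25A53 at 0.29 and 0.485 FPKM, the latter with the largest q-value among the brazilin members (q = 0.0467).

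The 5 mitochondrial carriers that fell included 1 pyrimidine nucleotide carrier, as did the 10 that rose. SLC25A37, mitoferrin 1, which carries iron for heme and iron-sulfur clusters, fell from 83.7 to 57.4 FPKM (log2 -0.68, interval -0.80 to -0.57, q = 9.59e-32) and was the most abundant of the 15. SLC25A27, of the uncoupling protein family, fell from 1.79 to 0.925 FPKM (log2 -1.01, interval -1.56 to -0.46, q = 0.000348). SLC25A42, the coenzyme A carrier, fell from 3.55 to 2.39 FPKM (log2 -0.66, interval -0.996 to -0.33, q = 0.000114). SLC25A36, a pyrimidine nucleotide carrier like SLC25A33, was at 22.9 and 15.9 FPKM (log2 -0.62). SLC25A40, linked to mitochondrial glutathione import, was at 4.11 and 3.05 FPKM (log2 -0.52). The risers had shorter and more GC-rich transcripts than the fallers, with median lengths of 2564 and 3120 bases and median GC contents of 54.7% and 45.9%, and the part of these properties in the direction was not tested for the group.

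Of 34 metal transporter genes 6 were listed with brazilin (17.6%, beside 14.3% of all protein-coding genes), with 2 rises and 4 falls beside 47.6% higher among all listed genes. Both rises were of zinc importers of the ZIP family, in which SLC39A3 went from 15.5 to 25.4 FPKM (log2 0.68, interval 0.48 to 0.88, q = 2.91e-11) and SLC39A4 from 14.9 to 24.0 FPKM (log2 0.67, interval 0.36 to 0.98, q = 2.44e-05). A further ZIP gene, SLC39A11, fell from 8.51 to 5.33 FPKM (log2 -0.88, interval -1.13 to -0.64, q = 2.45e-12). SLC31A1, the high-affinity copper importer CTR1, fell from 44.4 to 28.1 FPKM (log2 -0.75, interval -0.86 to -0.64, q = 1.25e-41). The zinc exporter family genes SLC30A9 and SLC30A4 were lower, SLC30A9 at 29.4 and 22.7 FPKM (log2 -0.54). SLC30A4 was at 1.29 and 1.16 FPKM with a deposited log2 fold change of -0.61 (interval -1.01 to -0.21), against -0.15 for the ratio of its means. The transcripts of both risers were shorter and richer in GC than those of the 4 fallers, with median GC contents of 65.9% and 42.0% and a part in the direction that was not tested. Of 10 genes of the zinc response, MT1A, a metallothionein that binds zinc and copper, was the 1 listed with brazilin, beside 14.3% of all protein-coding genes, and it rose from 12.3 to 32.2 FPKM (log2 1.35, interval 0.80 to 1.91).

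Of 62 organic ion transporter genes in RefSeq 9 were listed with brazilin (14.5%, the share of all protein-coding genes being 14.3%). Of these 2 rose and 7 fell, beside 47.6% higher among all listed genes. The largest falls were in the organic anion transporting polypeptides, the SLCO family. SLCO4C1 fell from 2.97 to 0.87 FPKM (log2 -1.86, interval -2.19 to -1.54, q = 7.77e-30), a 3.64-fold change and the largest fall of any member. SLCO4A1, a carrier of thyroid hormone and other organic anions, fell from 14.4 to 7.06 FPKM (log2 -1.16, interval -1.33 to -0.997, q = 1.04e-42). SLCO2A1, the prostaglandin transporter gene, was low and fell from 0.655 to 0.245 FPKM (log2 -1.57, interval -2.35 to -0.80, q = 6.92e-05). SLCO5A1, an orphan of the family, stood at 0.01 FPKM without treatment and reached 0.105 FPKM with brazilin. SLC10A7, a member of the bile acid transporter family, fell from 10.7 to 6.41 FPKM (log2 -0.94, interval -1.15 to -0.73, q = 6.03e-19). SLC17A5, the lysosomal sialic acid exporter sialin, fell from 18.5 to 11.9 FPKM (log2 -0.73). SLC22A3, the organic cation transporter OCT3, was at 4.11 and 3.10 FPKM, and SLC22A15 of the same family at 0.93 and 0.70 FPKM. SLC44A2, a choline transporter-like gene, rose from 39.4 to 69.0 FPKM (log2 0.71, interval 0.59 to 0.83, q = 1.42e-31) and had the highest level with brazilin of all members that rose.

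**Figure D3:**
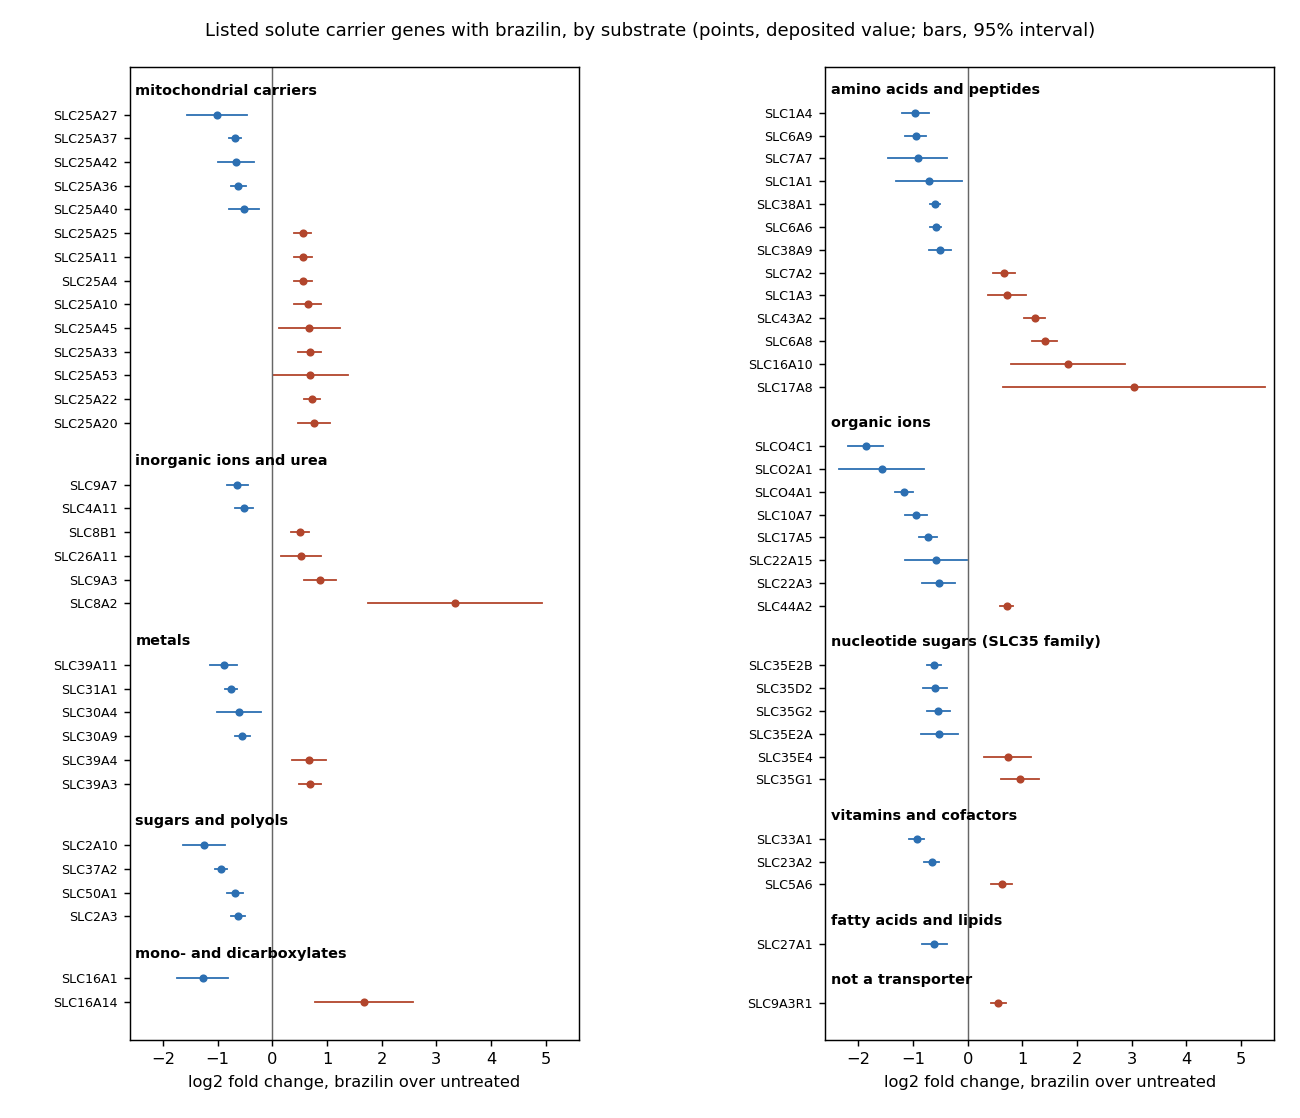
Deposited log2 fold change, brazilin over untreated, for 64 listed members above 0.01 FPKM in both groups, arranged by substrate; points are the deposited values and bars the 95% intervals bounded from the q-values. Most members lie between 0.5 and 1 on either side of 0, and the widest bars belong to SLC17A8 and SLC8A2, which were under 1 FPKM.

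Of 61 inorganic ion and urea transporter genes 7 were listed with brazilin (11.5%, beside 14.3% of all protein-coding genes). There were 4 rises and 3 falls, beside 47.6% higher among all listed genes. SLC9A3, the sodium-proton exchanger NHE3, rose from 1.49 to 2.90 FPKM (log2 0.87, interval 0.58 to 1.17, q = 8.97e-09). SLC8B1, the sodium-calcium exchanger of mitochondria, rose from 11.5 to 16.8 FPKM (log2 0.51, interval 0.34 to 0.68, q = 3.40e-09). SLC26A11, an anion exchanger gene, rose from 2.32 to 3.59 FPKM (log2 0.52, interval 0.15 to 0.90, q = 0.00556). SLC8A2, a plasma membrane sodium-calcium exchanger gene best known from brain, went from 0.02 to 0.245 FPKM. SLC9A7, a sodium-proton exchanger of the trans-Golgi network, fell from 3.995 to 2.815 FPKM (log2 -0.64, interval -0.82 to -0.45, q = 1.50e-11). SLC4A11, of the bicarbonate transporter family, fell from 16.5 to 12.3 FPKM (log2 -0.52, interval -0.69 to -0.35, q = 1.78e-09). SLC9A3R1 matches the symbol pattern but encodes NHERF1, a scaffold that binds NHE3 and other membrane proteins, and it rose from 30.7 to 48.1 FPKM (log2 0.56, interval 0.42 to 0.70, q = 1.79e-15).

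The SLC35 family, which brings nucleotide sugars into the Golgi apparatus and also holds members without a known substrate, had 2 rises and 4 falls with brazilin, beside 47.6% higher among all listed genes. By protein-coding genes 5 of 30 were listed (16.7%, beside 14.3% of all). RefSeq holds SLC35E2A as a transcribed pseudogene, so it counts as a member here but is not among these 5. SLC35G1 rose from 1.56 to 3.23 FPKM (log2 0.97, interval 0.62 to 1.31, q = 5.25e-08). SLC35E4 was at 1.55 FPKM without and 2.76 FPKM with brazilin (log2 0.74, interval 0.30 to 1.17, q = 0.000833). SLC35D2, a nucleotide sugar carrier, fell from 21.8 to 14.6 FPKM (log2 -0.59, interval -0.81 to -0.37, q = 1.16e-07), and SLC35G2 was at 16.9 and 12.4 FPKM (log2 -0.53, interval -0.75 to -0.32). SLC35E2B was at 15.8 and 10.9 FPKM (log2 -0.62, interval -0.75 to -0.49) and SLC35E2A at 2.68 and 2.28 FPKM. These last genes are near-identical over much of their coding sequence (at least 98% identity over 60% of SLC35E2B and 92% of SLC35E2A), so their separate values are uncertain. The same holds for SLC25A10, SLC33A1 and SLC35D2, which share most or all of the coding sequence with an annotated overlapping gene, for SLC25A33, which has a near-identical copy, and for SLC35E4 and SLC9A3, over 20% of whose exon bases overlap another gene.

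Transcript length and GC content went with direction in the whole brazilin table, and the members partly followed. In 5 equal classes of length, 68.6% of listed genes were higher in the shortest and 21.6% in the longest. Members numbered 1 higher of 5 in the shortest class, 10 of 14, 10 of 21 and 6 of 16 in the classes between, and 3 of 12 in the longest. By GC content 21.4% of listed genes were higher in the lowest class and 74.2% in the highest, and members numbered 4 of 10 and 12 of 16 there. By median, risers had shorter and more GC-rich transcripts than fallers in the mitochondrial, metal, inorganic ion, SLC35 and vitamin groups. Amino acid risers had longer ones, with medians of 3763 and 2927 bases, and lower GC contents, 48.4% and 50.6%. The 2 organic ion risers had longer but more GC-rich transcripts than the fallers, with medians of 6430 and 3455 bases. Across the 68 members Spearman's rho between log2 fold change and length was -0.12, and with GC content 0.23, beside -0.28 and 0.30 across the 2866 listed genes with a transcript. These are correlations across genes of the same libraries, which are not independent replicates, and whether length or GC content has a part in any member's value was not tested.

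**Figure D4:**
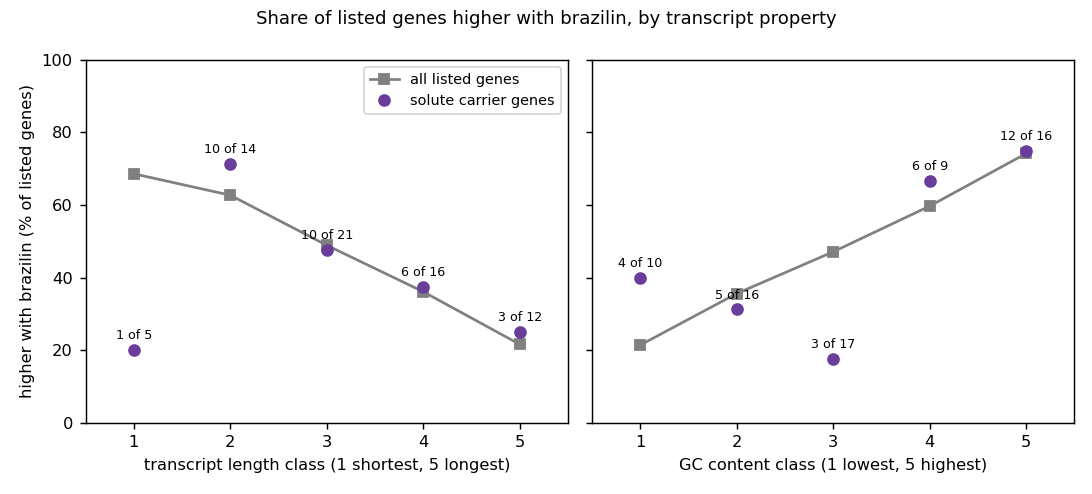
Share of listed genes that were higher with brazilin (y axis, %) in 5 classes of transcript length (left) and of GC content (right), for all listed genes (squares and line) and for solute carrier genes (circles, with counts). The line falls from 68.6% to 21.6% with length and rises from 21.4% to 74.2% with GC content, and the circles leave it most in the shortest class, with 1 of 5, and the third GC class, with 3 of 17.

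Genes that act beside the transporters were taken from 6 lists with 81 genes. The lists were chosen with earlier results of these data known. The share of all protein-coding genes set beside them includes genes these cells may not express. The counts below therefore describe the lists and do not test them. None of 10 genes of transporter chaperones and the sodium pump, such as BSG, the chaperone of the lactate transporters, was listed with any compound, nor was any of 14 mitochondrial transport genes outside SLC25, such as MPC1 of the pyruvate carrier. At the 14.3% of all protein-coding genes listed with brazilin, lists of this size would hold only a few, so a count of 0 says little. Among 17 scaffolds and kinases acting on transporters 6 were listed with brazilin, beside 14.3% of all genes, and 4 rose and 2 fell, beside 47.6% higher in the whole table. RSC1A1, named as a regulator of the sodium-glucose transporters, rose from 0.96 to 3.14 FPKM (log2 1.62, interval 1.12 to 2.11). Copies and overlapping genes were searched for members only, so reads from another gene cannot be set aside for RSC1A1 or the other genes of these lists. ARRDC4, an arrestin-like protein that lowers glucose uptake, rose from 2.34 to 6.74 FPKM (log2 1.43, interval 1.20 to 1.67). WNK4, a kinase that controls cation-chloride cotransport, was at 0.76 and 1.31 FPKM and PDZK1, a scaffold gene, at 0.28 and 0.655 FPKM. SGK3 fell from 5.16 to 3.12 FPKM and TXNIP, a relative of ARRDC4 that promotes removal of glucose transporters from the surface, from 224 to 167 FPKM. TXNIP was also listed as lower with acetylated brazilin, at 136 FPKM, and with methylated brazilin, at 119 FPKM. Its log2 fold changes were -0.52 with brazilin, -0.73 with acetylated brazilin and -0.92 with methylated brazilin. Of the 16 genes of the amino acid response, the ATF4 program that is known to act on several amino acid transporter genes, 7 were listed, of which 6 fell and 1 rose, beside 14.3% listed of all protein-coding genes and 47.6% higher of all listed genes. PSAT1, an enzyme of serine synthesis, fell from 145 to 82.5 FPKM (log2 -0.91, interval -1.02 to -0.81). ASNS, asparagine synthetase, fell from 127 to 89.1 FPKM (log2 -0.58, interval -0.69 to -0.48). NUPR1, TRIB3, SHMT2 and DDIT4 had log2 fold changes between -1.27 and -0.68, and STC2, the 1 that rose, was at 0.59 and 1.19 FPKM. For glucose use after uptake 3 of 14 genes were listed, all with a negative deposited fold change, beside 14.3% listed of all protein-coding genes and 47.6% higher of all listed genes. PDK4, a pyruvate dehydrogenase kinase gene, was at 3.70 and 2.71 FPKM and the transcription factor gene MLXIPL at 0.605 and 0.315 FPKM. PDK4 was also listed as lower with acetylated brazilin, at 2.555 FPKM (log2 -0.55). PDK3 was at 1.98 and 1.99 FPKM in spite of a deposited log2 fold change of -0.79, so its direction is uncertain.

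With acetylated brazilin 6 solute carrier genes were listed of 193 in the table, 4 higher and 2 lower, beside 62.2% higher among all listed genes. By gene ID and current symbol 7 of 394 protein-coding solute carriers in RefSeq were listed (1.78%), beside 0.932% of all protein-coding genes. No change reached 2-fold. SLC16A13, a monocarboxylate transporter family gene, rose most, from 2.88 to 5.51 FPKM (log2 0.93, interval 0.50 to 1.36, q = 2.44e-05). SLC2A8, the intracellular glucose transporter GLUT8, rose from 3.69 to 5.17 FPKM (log2 0.53, interval 0.07 to 0.98, q = 0.0227). SLC15A3, a lysosomal transporter of histidine and small peptides, rose from 2.16 to 3.17 FPKM (log2 0.54, interval 0.06 to 1.02, q = 0.0267). SLC5A3, the sodium-coupled transporter of the osmolyte myo-inositol, fell from 4.83 to 3.41 FPKM (log2 -0.52, interval -0.69 to -0.36, q = 6.19e-10). SLCO2A1 fell from 0.655 to 0.38 FPKM (log2 -0.96, interval -1.84 to -0.07, q = 0.0347).

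**Figure D5:**
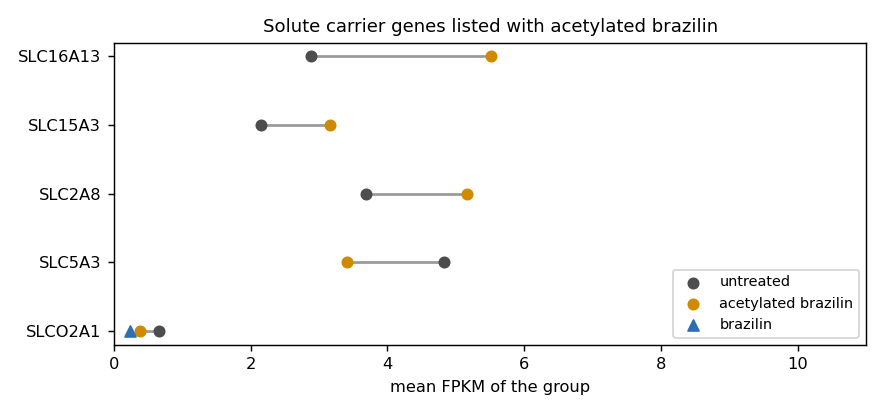
Mean FPKM of 5 of the 6 solute carrier genes listed with acetylated brazilin, in untreated cells (dark circles) and with acetylated brazilin (orange circles), joined by a line per gene; the triangle is SLCO2A1 with brazilin. The 3 upper genes moved to the right and the lower pair to the left, with SLCO2A1 at 0.655, 0.38 and 0.245 FPKM in untreated, acetylated brazilin and brazilin samples.

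SLCO2A1 was the 1 member that stood in more than 1 table, and so the 1 that could be compared between compounds at the same dose and time. Brazilin and acetylated brazilin, which differ by the acetyl groups named in the labels, were each compared with the same untreated samples. The SLCO2A1 log2 fold change was -1.57 with brazilin and -0.96 with acetylated brazilin, a difference of -0.62 (interval -1.80 to 0.56). A z test with errors bounded from the q-values gave a two-sided adjusted p of 0.493 over the 84 genes that both tables share. The interval includes 0 as well as values below -1, so it does not show that the compounds act alike on this gene. No solute carrier gene was among the 11 genes listed with methylated brazilin. The other 5 acetylated brazilin members and 67 brazilin members have no value for the other compounds, and their difference between compounds was not tested.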

How the data were processed

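RNA of 8 MDA-MB-231 samples (2 per group) was measured by sequencing. Tools named in the submitters' processing notes are DESeq2, RSEM, Bowtie, StringTie and HISAT, beside the builds mm10, hg38 and GRCh38, and versions and roles are not given. Per the file headers, the authors deposited mean FPKM per group, log2 fold changes and q-values, which serve here as adjusted p-values of the authors' test. The tables hold called genes only, with no values per sample, so no model was refitted, no replicate was compared and the precision of a value rests on its q-value alone. The depth is unknown.

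Members were matched on gene symbols, and grouped by substrate by symbol. Members, substrate groups and gene lists were chosen with earlier results of these data known. The group of the paired genes SLC35E2A and SLC35E2B was corrected after the files were seen. A total of 3 listed members stay in the counts but are not reported here by name or in plots of named genes. Every other listed member is named, with the interval for up to 3 rises and 3 falls per group among members that reach 1 FPKM in either group, and for some others. The error of a log2 fold change was its size over the normal quantile of q read as a two-sided p-value, an upper bound provided that the test behind q was of the Wald type without shrinkage. The difference between compounds used the summed squared errors, with Benjamini-Hochberg adjustment over shared genes. A check on simulated data with known answers used errors from unadjusted p-values and no shared controls. The test with errors bounded from q-values was therefore not itself checked. Shared controls make the error of the difference too large.

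Gene IDs were matched to RefSeq (GRCh38.p14), where all 73 members were found. Transcripts (the longest coding sequence per gene) came from GENCODE release 29, and copies were searched with BLAST+ 2.17.0 at 98% identity over at least 50% of the coding sequence. Promoters are those of RefSeq. No strand of the libraries is stated, so overlapping genes cannot be separated. Python 3.11.15, SciPy 1.17.1 and pandas 2.3.3 were used. Alternatives were q-value thresholds of 0.01 and 0.001, a log2 threshold of 1, a minimum of 1 FPKM, the ratio of FPKM means, transporters only, members without copies, and a correlation of 0.5 for shared controls.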

Additional observations from a re-analysis of the deposited data

How the results depend on the processing

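With brazilin the counts stayed between 56 and 68 members, with 23 to 30 higher and 26 to 38 lower, under every alternative except a log2 threshold of 1, which left 15 members, 9 higher and 6 lower. These alternatives could only remove members from those the authors listed, and no unlisted gene could enter. How the counts depend on the authors' own processing was not tested. When log2 ratios of the FPKM means replaced the deposited fold changes at an equal minimum of 0.5, 30 members were higher and 26 lower (53.6% higher, against 44.1% as deposited), because 12 listed falls were under 0.5 by that ratio. Over all genes listed with brazilin the ratio lay above the deposited value by a median of 0.09. The share higher by ratio over all listed genes is not given here, so the shift cannot be read as particular to the members. No member changed direction. With acetylated brazilin, q-value thresholds of 0.01 and of 0.001 each left 3 members, 2 higher and 1 lower, a log2 threshold of 1 left 0, and a minimum of 1 FPKM left 1 lower member. With methylated brazilin the count was 0 throughout. For SLCO2A1 the adjusted p of the difference between compounds was 0.239 with a covariance for shared controls and 0.491 by FPKM ratios. No paired analysis was possible because the deposited columns are group means, and for the same reason no replicate could be left out. The unknown depth limits genes under 1 FPKM most.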

Other observations

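In 6 of the 68 brazilin members (8.82%, beside 6.62% of all listed genes) the deposited log2 fold change and the log2 ratio of the deposited FPKM means differed by more than 0.2 beyond the median offset of 0.09 in that table. They were SLC38A1 (-0.60 and -0.21), SLC30A4 (-0.61 and -0.15), SLC1A3 (0.72 and 1.15), SLC16A14 (1.67 and 2.11), SLC16A10 (1.83 and 2.55) and SLC6A7, which was listed at 0.01 FPKM in untreated cells. In each the ratio of means was the higher value, and the cause was not tested.

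A pair of listed genes carry a solute carrier symbol in RefSeq but an older symbol in the tables, so they fell outside the choice by symbol. TMCO3, now SLC9D1, had a log2 fold change of -0.78 with brazilin, and MFSD13A, now SLC68A1, one of 0.53 with acetylated brazilin.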
